A study of Bos taurus and Felis catus with 14 samples.

Results

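The let-7 family and the families that lie beside it, mir-98, mir-99, mir-100 and mir-125, were examined in the predicted microRNA loci of the cow (Bos taurus) and the domestic cat (Felis catus). Members were taken by name, as every precursor whose name holds one of these family numbers, with any letter, copy number or suffix. The rule found 18 of the 810 bovine loci and 18 of the 495 feline loci, 36 of 1305 in all. Small RNA had been sequenced in 10 bovine libraries, 1 for each of retina, iris, optic nerve, brain stem, dental pulp, oral papillae, penis, corium, submandibular lymph node and bone marrow, from 3 Angus steers, of which 1 gave 8 of the tissues. The 4 feline libraries, 2 of skin and 2 of muscle, came from 3 neutered male domestic short hair cats, and the labels name no treatment of any animal. The program miRWoods was run on the combined libraries of a species, so each species has 1 call set, no replicate, and no test was made. A locus in these sets is a genomic span with a strand and a name, together with the spans of its mature products from the 5p and 3p arms of the hairpin. The deposited sets hold no read number for a locus, and the read counts in the study's supplement were not used here, so expression and tissue were not compared.

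A microRNA is cut from a hairpin, by Drosha in the nucleus and by Dicer in the cytoplasm, and its seed near the 5′ end pairs with target messenger RNAs. The let-7 microRNAs accumulate as cells differentiate and repress growth genes, and mir-98 carries the let-7 seed under another name. The RNA-binding protein LIN28 holds let-7 back by binding the terminal loop of its precursor. In many animals a let-7 gene lies in a row with a gene of the mir-99 and mir-100 family and a gene of the mir-125 family, the latter related to lin-4 of the nematode.

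The sequences of the members' 5p products are shown first, with the seeds that they share. They are human products, from the study's own list of mature microRNAs read in established human cell lines. The copy of that list at hand was shortened and held no let-7a-1, let-7d, let-7f or mir-98, so those members are not covered. Bovine and feline sequences were not read here. Capitals mark the seed, bases 2 to 8 from the 5′ end.
let-7a-2 and let-7a-3: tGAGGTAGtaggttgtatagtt
let-7b: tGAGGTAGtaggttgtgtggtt
let-7c: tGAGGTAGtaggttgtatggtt
let-7e: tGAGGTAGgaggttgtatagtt
let-7g: tGAGGTAGtagtttgtacagtt
let-7i: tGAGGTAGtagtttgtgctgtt
mir-99a: aACCCGTAgatccgatcttgtg
mir-100: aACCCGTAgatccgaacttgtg
mir-99b: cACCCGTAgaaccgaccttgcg
mir-125b-1 and mir-125b-2: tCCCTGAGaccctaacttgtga
mir-125a: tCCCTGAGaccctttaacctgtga
The 13 products fell into 3 seeds, 7 with the let-7 seed, 3 with that of mir-99 and mir-100 and 3 with that of mir-125. Among these products, every difference within a family lay outside the seed. Counting from 1 at the 5′ end, with the base of let-7a-2 given before the position, let-7c differed by A19G, let-7e by T9G, let-7b by A17G and A19G, let-7g by G12T and T18C, and let-7i by G12T, A17G, T18C and A19T. From mir-99a, mir-100 differed by T16A and mir-99b by A1C, T11A, T16C and T21C. The 13 products made 11 distinct sequences, since the let-7a copies and the mir-125b copies gave the same 5p product. The 3p products of the human mir-125b copies differ, and are shown because their 5p products are identical.
mir-125b-1, 3p: aCGGGTTAggctcttgggagct
mir-125b-2, 3p: aCAAGTCAggctcttgggacct
Where copies are this alike a read of the 5p product can fit several loci, and the position of such a product is given at each of them.

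Cow and cat had the same number of loci in every family. There were 11 loci of let-7, 1 of mir-98, 2 of mir-99, 1 of mir-100 and 3 of mir-125 in each set. All bovine members had a plain family name. In the feline set 5 members carried names that mark a further member of a family, 4 of let-7 and 1 of mir-125. The let-7 loci with numbered names were fca-let-7-Novel2, fca-let-7-Novel3 and fca-let-7-Novel4. The other let-7 locus and the mir-125 locus carry the mark without a number, and are called here by their place, as the feline counterparts of let-7f-2 and of mir-125a. All 18 members had products from both arms in each species, where 72.5% of all bovine loci and 65.7% of all feline loci did. With neighbours at most 10 kb apart, 14 of the 18 members lay in a cluster in each species, against 29% of all bovine and 33.3% of all feline loci. The families were chosen as ones that lie beside let-7, so this share is not independent of the choice.

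The members fell into 8 places in each species. Of these, 6 were rows of 2 or 3 members on a single strand with neighbours at most 100 kb apart. Rows were matched between the species by the order of their families from 5′ to 3′, with ties settled by shared names. All 6 rows of each species found a counterpart. Equal family order is a condition of the match, and in rows of let-7 alone it could not differ. In 3 rows a mir-99 or mir-100 locus came first, let-7 followed and mir-125 came last. In the other 3 rows let-7 stood with let-7 or mir-98. The remaining places held let-7g and let-7i alone. Loci were paired between the species by their position in these rows, and the lone loci by name. This gave 18 pairs, 11 of them with the same name and 13 on strands of the same sign. Feline let-7 loci named as further members carry no letter, so their pairing rests on position in the row. Neither sequences nor feline neighbour genes were read, so whether matched places share an origin in the genome was not tested.

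The row of mir-100, let-7a-2 and mir-125b-1 was the longest. In cow it spanned 54637 nt on chromosome 15, from 33298824 to 33353460 on the minus strand. In cat it spanned 52952 nt on the sequence NC_018732.2, from 19439037 to 19491988, also on the minus strand. The mir-100 locus was 5760 nt from let-7a-2 in cow and 5721 nt in cat. The following gap, from let-7a-2 to mir-125b-1, was 48676 nt in cow and 47030 nt in cat, shorter in cat by 1646 nt. No other predicted locus lay inside the row in either species, and the nearest outside was bta-Novel210 at 2880269 nt in cow and fca-Novel63 at 848870 nt in cat. In a RefSeq gene table of the bovine assembly ARS-UCD2.0, a different source from the deposited set, the 3 genes lie between the protein genes SORL1 and UBASH3B, and MIR125B-1 lies inside long noncoding RNA genes.

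The row of mir-99a, let-7c and mir-125b-2 had the same order and nearly the same length. It spanned 49901 nt on bovine chromosome 1 (minus strand, 19881356 to 19931256) and 48354 nt on the feline sequence NC_018731.2 (minus strand, 27071522 to 27119875). The gap from mir-99a to let-7c was 656 nt in cow and 667 nt in cat. From let-7c to mir-125b-2 it was 49040 nt in cow and 47490 nt in cat, a difference of 1550 nt. In the same RefSeq table all 3 genes lie inside a single long noncoding RNA gene between CXADR and USP25. In cat a locus without a family, fca-Novel30, lay 18928 nt downstream of fca-mir-125b-2 on the same strand. In cow the nearest locus outside the row was bta-mir-155, 9654017 nt away.

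Within a species, the gap from let-7 to mir-125b was nearly equal in these rows and the gap before let-7 was not. The bovine gaps from let-7 to mir-125b, 48676 and 49040 nt, differed by 364 nt, a ratio of 0.993. The feline gaps, 47030 and 47490 nt, differed by 460 nt, a ratio of 0.990. The mir-100 locus, by contrast, stood 8.78 times as far from let-7a-2 as mir-99a from let-7c in cow and 8.58 times as far in cat. At the step before let-7 the gaps were closer between the species than between the copies, and at the step from let-7 to mir-125b they were closer between the copies, since the species differed there by 1646 and 1550 nt.

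The row of mir-99b, let-7e and mir-125a was short in both species. It took 737 nt on bovine chromosome 18, from 58014873 to 58015609 on the plus strand, and 627 nt on the feline sequence NC_018737.2, from 6638498 to 6639124 on the minus strand. The feline locus at the place of mir-125a was the further member of mir-125. The gap from mir-99b to let-7e was 107 nt in cow and 113 nt in cat. The gap from let-7e to mir-125a was 438 nt in cow, and the feline gap to its counterpart was 317 nt, 0.724 of the bovine one and the lowest ratio among the members. In the RefSeq table MIR99B and MIRLET7E lie beside SPACA6, and MIR125A lies next to HAS1, a hyaluronan synthase gene. At the 10 kb cluster distance this row was the only complete one, with all 3 families, in each species, and at 50 kb or 100 kb all 3 rows were complete.

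**Figure D1:**
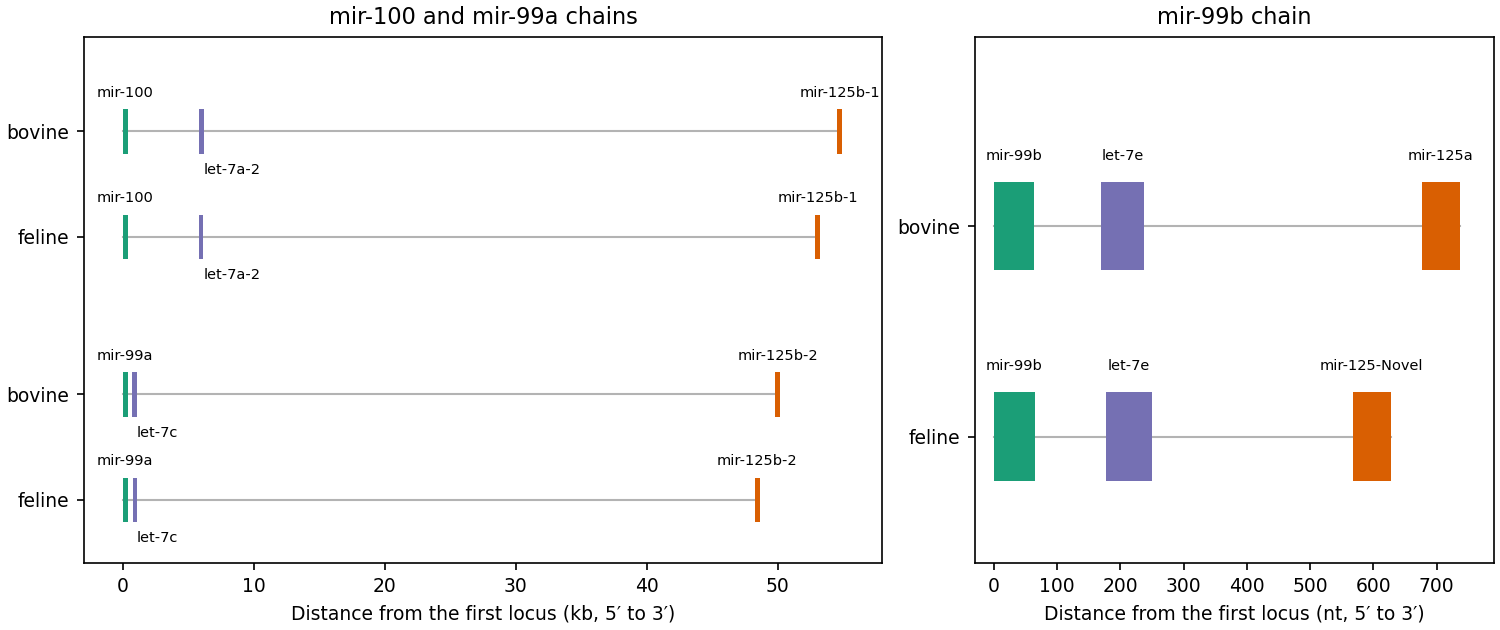
Position of each locus in the rows that hold mir-99 or mir-100, let-7 and mir-125, as distance from the 5′ end of the first locus, in kb (left) and in nt (right), for the bovine and the feline set (green, mir-99 or mir-100; purple, let-7; orange, mir-125). Bars on the left are drawn wider than the loci so that they can be seen; the feline mir-125b loci sit 1550 to 1646 nt closer to let-7 than the bovine ones.

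Among the rows of let-7 alone, let-7a-3 and let-7b lay on bovine chromosome 5 from 117119387 to 117120269 on the plus strand, with a gap of 728 nt. Another predicted locus, bta-mir-2443, lay between them on the same strand, 185 nt from let-7a-3 and 475 nt from let-7b, from 117119645 to 117119712, with products from both arms of its 68 nt precursor. The feline row held fca-let-7a-1 and fca-let-7-Novel4 on NC_018729.2 from 138700796 to 138701778 on the plus strand, with a gap of 831 nt. No locus was predicted between them. In the RefSeq table MIRLET7A-3 and MIRLET7B both lie inside a protein-coding gene that has no symbol beyond its locus number, and the named protein genes on either side are WNT7B and PPARA.

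The row of let-7a-1, let-7f-1 and let-7d on bovine chromosome 8 had its feline counterpart in a row of fca-let-7-Novel2, then fca-let-7f, then fca-let-7-Novel3. The bovine row spanned 2641 nt of the plus strand, 86884876 to 86887516, and the feline row 2368 nt of the plus strand of NC_018735.2, 1785089 to 1787456. The steps differed in opposite directions. The gap before let-7f was 35 nt shorter in cow than in cat, and the gap after it was 308 nt longer in cow. As ratios of feline to bovine gap these were 1.13 and 0.855. In the RefSeq table the bovine genes lie beside the zinc finger gene ZNF169.

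The row of let-7f-2 and mir-98 was on the minus strand of the bovine X chromosome, from 96382644 to 96383608. Its feline counterpart, a further let-7 member and fca-miR-98, was on the minus strand of NC_018741.2, from 46078565 to 46079991. The gap was 807 nt in cow and 1269 nt in cat, 1.57 times the bovine one and the highest ratio among the members. Both bovine genes lie inside HUWE1, a ubiquitin ligase gene, in the RefSeq table, which does not tell exons from introns.

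Of the lone members, let-7g lay on bovine chromosome 22 from 49189343 to 49189424 on the plus strand and on the feline sequence NC_018724.2 from 20949826 to 20949907 on the minus strand. A mir-135a locus was its nearest predicted neighbour in both species, upstream on the same strand, bta-mir-135a-1 at 47236 nt and fca-mir-135a-2 at 31802 nt. In the RefSeq table bovine MIRLET7G lies inside the protein gene WDR82. The let-7i locus was on the minus strand of bovine chromosome 5, from 51209081 to 51209159, and on the plus strand of NC_018729.2, from 88352857 to 88352937. Its nearest neighbours were far away and of different families, bta-mir-2285-Novel47 at 1537603 nt and fca-mir-26a-2 at 4181197 nt.

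Over the 10 gaps between neighbouring members, the feline gap was shorter in 5, and the ratio of feline to bovine gap ran from 0.724 to 1.57 with a median of 1.005. The same was computed for the 43 gaps between neighbouring loci outside the families that carry the same names in both sets, on a single strand and at most 100 kb apart. Their ratios ran from 0.564 to 1.87 with a median of 1.01, and 39 of the 43 lay in the range of the members. The lowest and the highest ratio of the members thus lay inside the range of other named neighbours. Loci without a shared name were passed over in the list of 43, so other predicted loci can lie within those gaps. Among the member gaps, that between bovine let-7a-3 and let-7b holds bta-mir-2443.

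**Figure D2:**
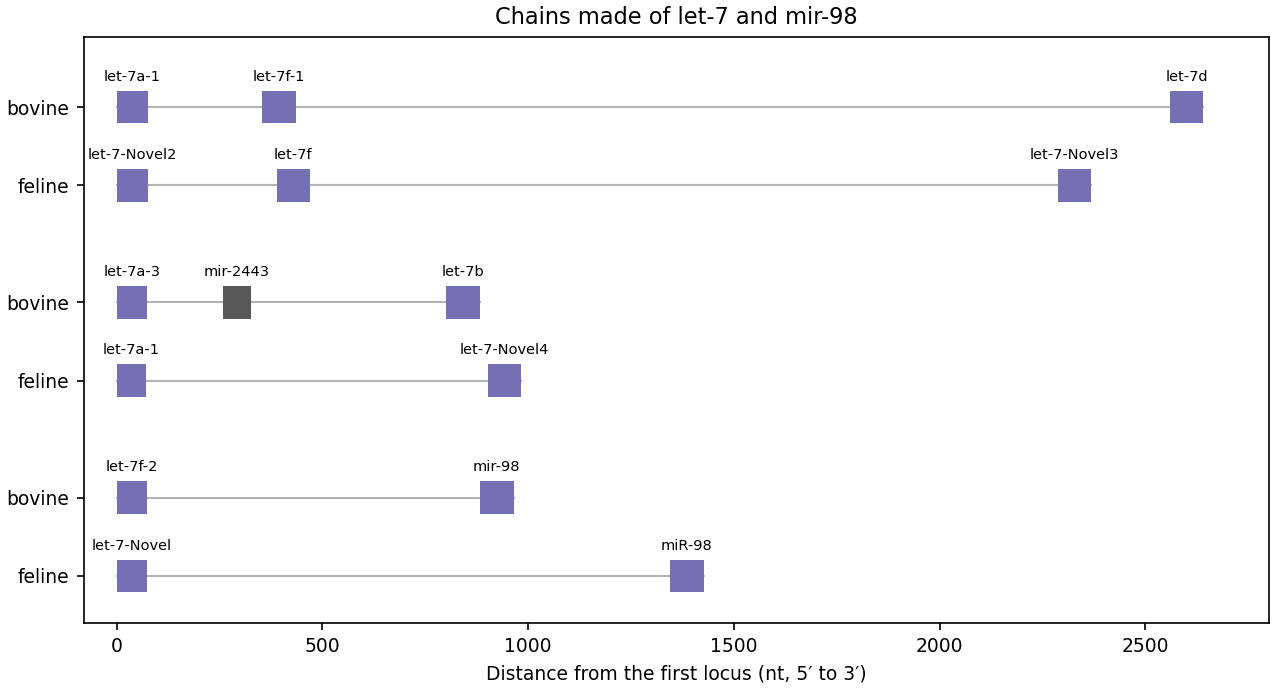
Position of each locus in the rows of let-7 and mir-98, as distance in nt from the 5′ end of the first locus, for the bovine and the feline set (purple, let-7 and mir-98; grey, bta-mir-2443). The rows were matched by family order, and the row that ends in mir-98 differs most in proportion. Its gap is 1269 nt in cat against 807 nt in cow.

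**Figure D3:**
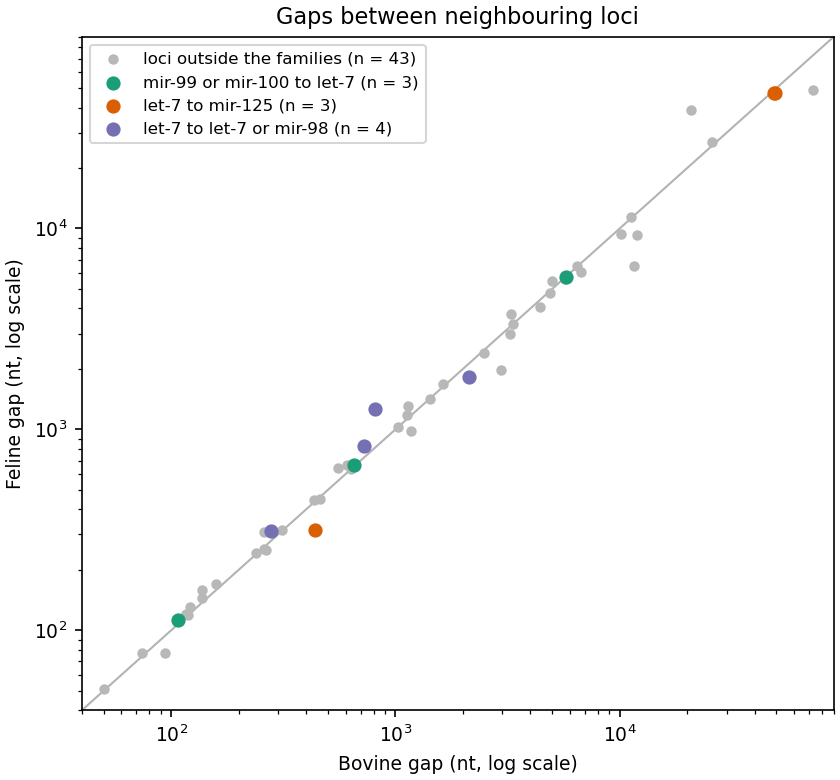
Feline against bovine gap, in nt on log axes, for the 10 gaps between neighbouring members (coloured by step) and the 43 gaps between neighbouring loci outside the families with shared names (grey). The line marks equal gaps; the members' ratios run from 0.724 to 1.57.

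Each hairpin was then divided along its precursor into the 5′ flank, the 5p product, the nucleotides between the products, the 3p product and the 3′ flank. The stretch between the products is called the loop here, although it can include some of the stem, and no folding was done. A loop depends on where the products were placed, which the reads of all libraries of a species set together.

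The let-7 and mir-98 loci had long loops in both species. Their median loop was 30.5 nt in cow and 30.5 nt in cat, from 23 to 36 nt, where all loci with products from both arms had a median of 16 nt in each set, with quartiles of 14 and 18 nt. The shortest of these loops, 23 nt in each species, was taken as a cutoff, so all 12 reach it by that choice. A loop of at least 23 nt was found at 8.86% of all bovine and 10.5% of all feline loci with both arms, members included. Outside the families, 40 of 569 bovine and 22 of 307 feline loci with both arms had such a loop. A loop of at least 30 nt was found at 6 of the 12 in each species, against 3.75% of bovine and 4.92% of feline loci. The mir-99 and mir-100 loci, by contrast, had loops of 13, 15 and 16 nt in cow and 13, 16 and 17 nt in cat. The mir-125 loci had loops of 16, 17 and 18 nt in both species, near the median of all loci.

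The let-7 loci did not share a single loop length, and the shortest loops belonged to those beside mir-99 or mir-100. In let-7a-2, let-7c and let-7e the loop was 23 nt in all 3 bovine and all 3 feline loci, with 5p and 3p products of 22 nt each. The other 9 let-7 and mir-98 loci had loops of 26 to 36 nt in cow and 25 to 36 nt in cat, so the ranges did not overlap. The shortest loop of these 9 in cat was 25 nt, so all 9 reach that cutoff by its choice. A loop of at least 25 nt was found at 5.96% of all bovine and 7.69% of all feline loci with both arms, members included. Outside the families, 26 of 569 bovine and 16 of 307 feline loci with both arms had such a loop.

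Copies with the same letter differed in their loops. The bovine let-7a copies had loops of 29 nt (let-7a-1), 23 nt (let-7a-2) and 26 nt (let-7a-3), and their feline counterparts had 29, 23 and 25 nt. The bovine let-7f copies had 34 nt (let-7f-1) and 28 nt (let-7f-2), and the feline ones the same. The loop of bovine let-7b was 33 nt, that of let-7d 32 nt, that of let-7i 34 nt, that of let-7g 35 nt and that of mir-98 36 nt, with no difference in their feline counterparts. In the 3 rows of let-7 alone or with mir-98, the locus that came first had the shortest loop in both species. From 5′ to 3′, the bovine loops were 26 and 33 nt, then 29, 34 and 32 nt, then 28 and 36 nt.

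**Figure D4:**
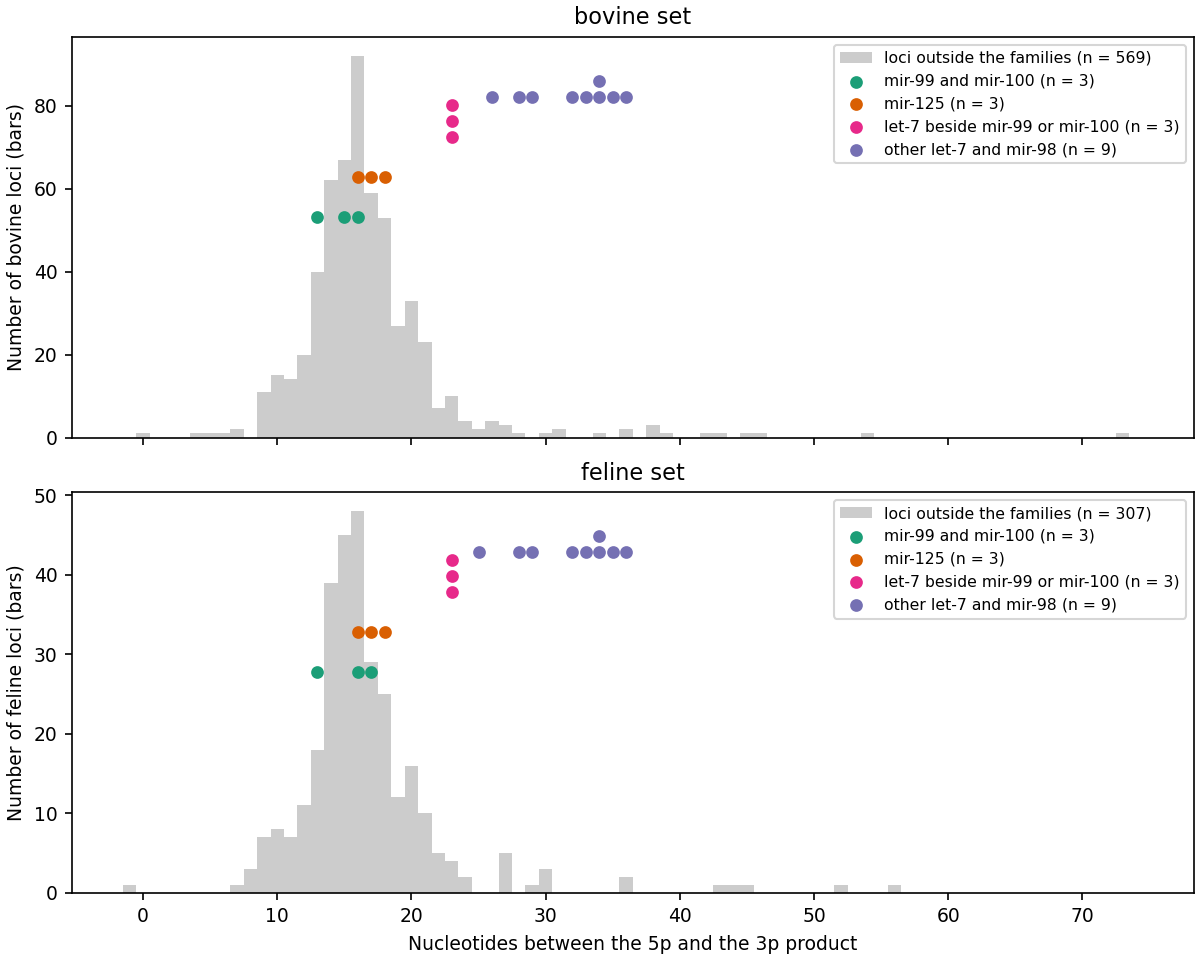
Nucleotides between the 5p and the 3p product for all loci outside the families with both arms (grey bars, number of loci) and for each member (points, one per locus; their height carries no value), in the bovine (top) and the feline set (bottom). The let-7 loci beside mir-99 or mir-100 lie at 23 nt, the other let-7 and mir-98 loci at 25 to 36 nt, and mir-99, mir-100 and mir-125 at 13 to 18 nt among the bulk of other loci.

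Matched loci had the same or nearly the same loop in cow and cat. The loop was the same in 15 of the 18 pairs, and differed by 1 nt in the others. The distance from the start of the 5p product to the start of the 3p product, which does not depend on where the 5p product ends, was the same in 17 of 18. Among the 127 loci outside the families with the same name and both arms in each set, the loop was the same at 60.6%. The distance between starts was the same at 78% of them. Counting differences of at most 1 nt, as all 18 member pairs have, the shares were 80.3% for the loop and 90.6% for the distance. Those loci were matched by name alone. Of the 11 member pairs with the same name, 9 had the same loop and 11 the same distance between starts.

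The exceptions were let-7a-3, mir-99a and mir-99b. Bovine let-7a-3 had a loop of 26 nt and its feline counterpart, fca-let-7a-1, of 25 nt, and this was the pair with another distance between starts, 48 against 47 nt. In mir-99a the 5p product was 22 nt in cow and 21 nt in cat, with loops of 15 and 16 nt, so that the 3p product began 37 nt after the 5p start in both. In mir-99b the 5p product was again 22 and 21 nt, the loops were 16 and 17 nt, and the distance was 38 nt in both. In both pairs the 5p product was 1 nt shorter and the loop 1 nt longer in cat, and the 5′ flank and the 3p product also differed in length.

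The product lengths varied mainly on the 3p arm. The 5p product was 22 nt in all 18 bovine members and in 16 of 18 feline members, against 43.6% and 47.7% of all loci with both arms. Copies with the same 5p product, as let-7a and mir-125b have in human, can share reads, so these loci are not separate observations. The 3p product was of equal length in 12 of 18 pairs, longer in cow in 5 and longer in cat in 1. The widest difference was 2 nt, in mir-99a (23 nt in cow and 21 nt in cat) and in mir-125b-2 (22 and 20 nt). Among the 127 other loci, 77.2% had a 5p product of equal length and 77.2% a 3p product of equal length. In 10 of the 18 pairs all 5 segments were equal, 8 of the 12 pairs of let-7 and mir-98 and 2 of the 6 pairs of the other families. Among the other loci 29.9% had all 5 segments equal. Those loci were matched by name alone. Of the 11 member pairs with the same name, 9 had a 5p product and 7 a 3p product of equal length, and 6 had all 5 segments equal.

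The ends of the precursors were drawn alike for most members. The precursor ran 3 nt past the 3p product in 15 of 18 bovine and 17 of 18 feline members, as at 37.5% of all bovine and 39.7% of all feline loci with both arms. It ran 1 nt past it in bovine let-7e, let-7i and mir-125a and in the feline counterpart of mir-125a. The 3′ flank was equal in 16 of 18 pairs and the 5′ flank in 12 of 18, against 51.2% and 46.5% of the 127 other loci. The bovine let-7e and let-7i loci also began at the first base of the 5p product, and their feline counterparts began 2 nt and 1 nt before it, while mir-125a began there in both species. Their precursors were therefore 68 and 79 nt in cow and 72 and 81 nt in cat, although loop and distance between starts were equal. The miRWoods program adds flanks to the spans it forms by pairing the arms and chooses among several spans at a locus. The part of that choice in these differences was not tested.

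Precursors of the let-7 and mir-98 loci were 68 to 83 nt long in cow and 72 to 83 nt in cat, and those of mir-99, mir-100 and mir-125 were 61 to 67 nt in cow and 60 to 67 nt in cat. The length was equal in 10 of 18 pairs, against 40.9% of the 127 other loci, which were matched by name. Of the 11 member pairs with the same name it was equal in 6. The widest differences were 4 nt. They were found in mir-99a, with 66 nt in cow and 62 nt in cat, in mir-125b-2, with 67 and 63 nt, and in let-7e. The bovine precursor was the longer one in mir-99a and mir-125b-2, and the feline one in let-7e.

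The 5 feline members named as further members of their families were laid out like their bovine counterparts. All 5 had the loop and the distance between starts of the bovine locus at the same place in the row, and 3 of them, those at the places of let-7f-2, let-7a-1 and let-7d, had all 5 segments equal to the bovine ones. In fca-let-7-Novel4 the 3p product was 21 nt against 22 nt in let-7b and the 5′ flank 1 nt against 2 nt. In the feline counterpart of mir-125a the 3p product was 21 nt against 22 nt in cow. In 1 feline locus the name and the matched place differed. Whether loop length tells let-7 copies apart was not tested. The locus called fca-let-7a-1 stood at the place of bovine let-7a-3 and had a loop of 25 nt, 1 nt from that of let-7a-3 and 4 nt from the 29 nt of bovine let-7a-1. The feline locus at the place of bovine let-7a-1, fca-let-7-Novel2, had a loop of 29 nt.

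**Figure D5:**
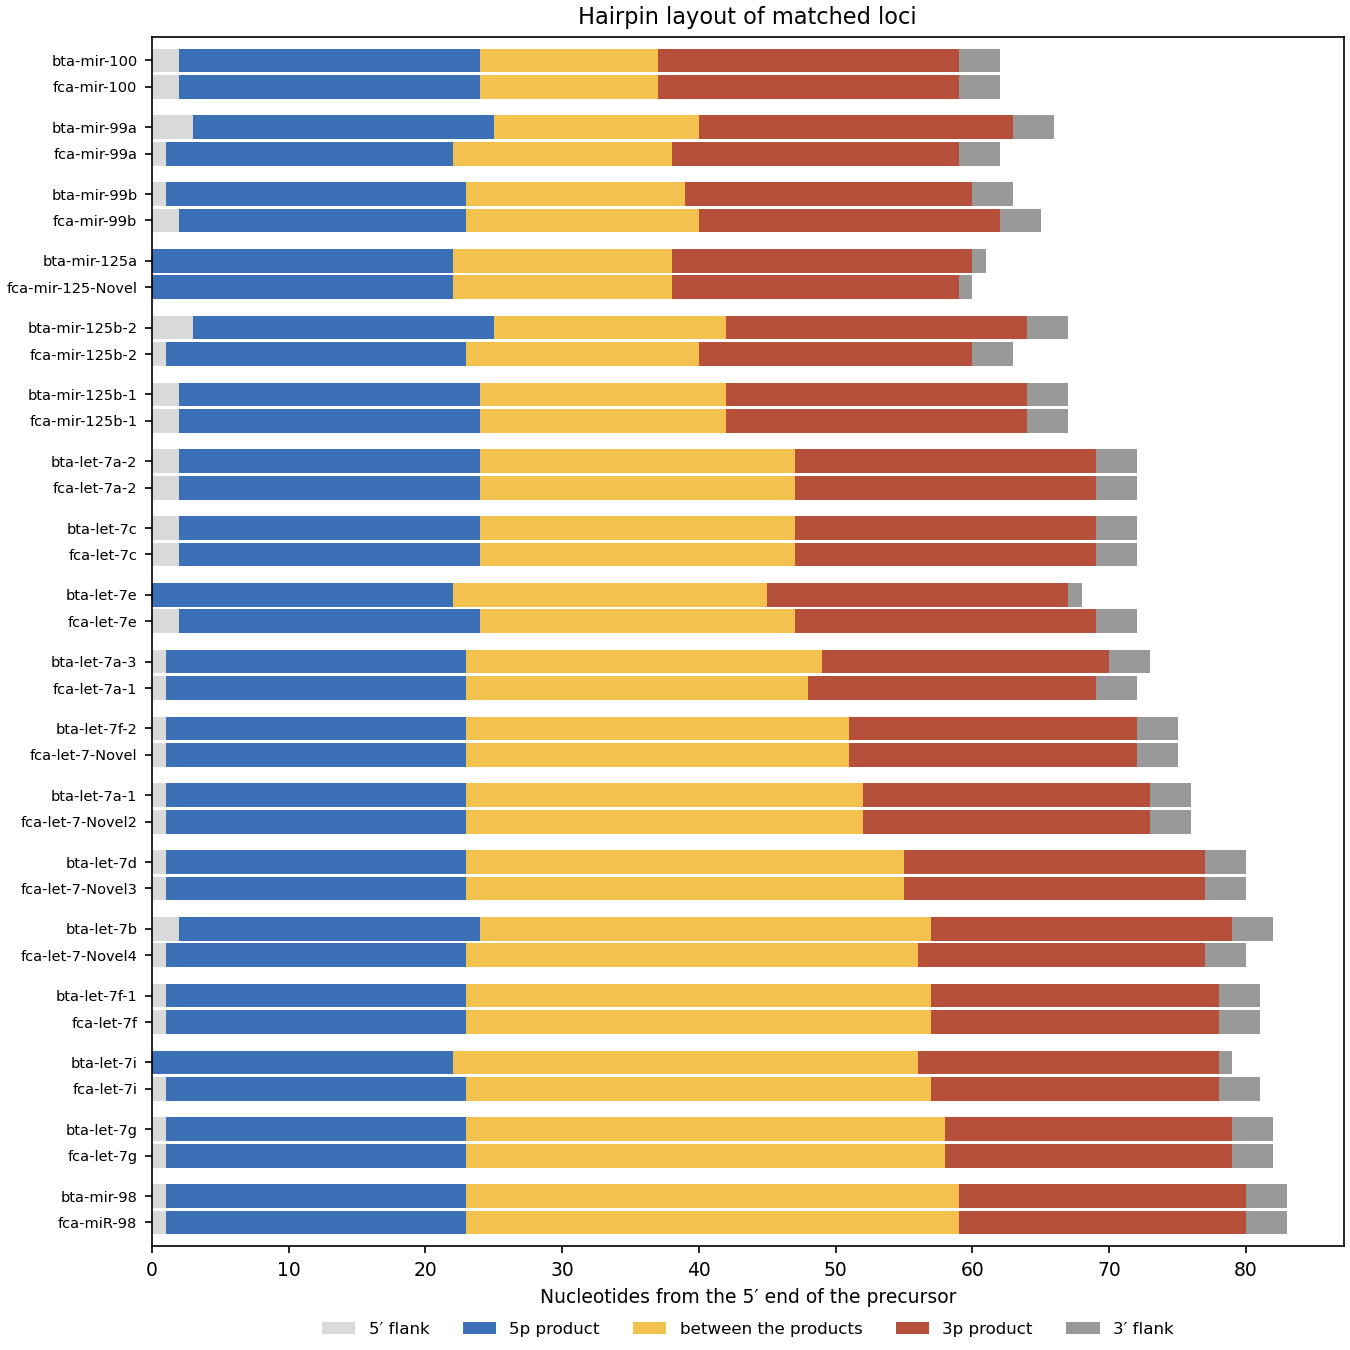
Length in nt of the 5′ flank, 5p product, stretch between the products, 3p product and 3′ flank for the 18 matched pairs, bovine locus above its feline counterpart, ordered by loop within mir-99 and mir-100, mir-125, and let-7 with mir-98. All 5 segments are equal in 10 pairs, and the yellow loop grows from 13 nt in mir-100 to 36 nt in mir-98.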

How the data were processed

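Small RNA libraries were made with a TruSeq kit and sequenced by Illumina. The submitters' processing notes name cutadapt 1.15, Bowtie 1.2.11 and SAMtools. The authors trimmed and aligned the reads, left out reads with too many genome positions, divided the others over their best positions, and ran miRWoods once per species, over its pooled libraries, to call precursors and products. The deposited values are starts and ends counted from 1. The sources used here do not give the genome build, and no genome was used. The deposited sets give no read numbers, and the supplement's read counts, of which the copy at hand was shortened, were not used, so depth per locus was not analysed here. Gaps, product positions and flanks were computed from the deposited spans with Python 3.11.15, numpy 2.4.6 and pandas 2.3.3, and were tested on simulated lists. Figures used matplotlib 3.10.9. Every member is named, except that a pair of feline members is called by place. Other loci are named where they lie between members or are the nearest locus to a row or lone member. The nearest loci to rows were added after their values were seen. Bovine names were looked up in a RefSeq table (ARS-UCD2.0), where 18 of 18 matched, for neighbours only. Human sequences came from the study's shortened list, without let-7a-1, let-7d, let-7f and mir-98. Members, lists and measures were chosen with earlier results of these data known. The alternatives varied the cluster distance, how distance is measured, the strand, the members counted, the flanks and the matching.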

Additional observations from a re-analysis of the deposited data

How the results depend on the processing

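Over 18 results, 60 alternatives were computed, of which 11 were counted as moved and 49 were not. Some of the 49 still differed. At 1 kb, feline groups with at least 2 members fell from 6 to 4, and bovine members in a cluster from 14 to 11. Without the further members, feline member loci fell from 18 to 13. With a cluster distance of 50 or 100 kb, complete rows of the 3 families numbered 3 in cow and 3 in cat at either distance, where 10 kb gave 1 each, because the gaps to mir-125b exceed 10 kb. At 1 kb, 9 feline members lay in a cluster in place of 14. With the flanks counted into the loop, the median of let-7 and mir-98 was 34 nt in cow and 34.5 nt in cat, and that of mir-99, mir-100 and mir-125 was 20.5 nt in cow and 20.5 nt in cat, where the loop alone gave 16 and 16.5 nt. Without the feline members named as further ones, the let-7 and mir-98 median in cat was 29.5 nt. Matched by identical name alone, 9 of 12 pairs had the same loop. Lost were 6 pairs with equal loops, 5 whose feline locus is a further member and let-7f-1 with fca-let-7f, while fca-let-7a-1 paired with bovine let-7a-1, again with an unequal loop. The distance between product starts, the count of pairs with the same loop and the count over let-7 and mir-98 alone were added after the data were seen. No paired analysis was possible because each species has 1 call set and no result comes from a test, and for the same reason no replicate could be left out. The depth behind a product end was not analysed here.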
